A study of Mus musculus with 6 samples.

Results

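The 500 widest stretches of open chromatin shared by every library are described for blood monocytes from mice treated with diphtheria toxin. Accessible DNA was measured by ATAC-seq, an assay in which a Tn5 transposase cuts open chromatin and tags the ends for sequencing. The DTR group held 3 libraries from PF4cre-iDTR mice, which the labels call thrombocytopenic, and the WT group held 3 libraries from wild-type control mice. Both groups received the toxin. In such mice Cre driven by the Pf4 promoter, active mainly in megakaryocytes, switches on a diphtheria toxin receptor, so that the toxin removes megakaryocytes and with them platelets. The labels give no strain, age, sex or time after the toxin. They do not tell separate animals from pooled ones either, and p-values here measure no more than the spread between libraries. The regions were chosen by merging overlapping or touching peaks of the 6 deposited lists on chromosomes 1 to 19, keeping merged regions with a peak in all 6 libraries, and taking the 500 with the largest merged width. They are 500 of 67099 regions with a peak in all 6 libraries, which are part of 90477 merged regions.

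Width is the value these regions were selected on, and it is given here only as a description. Their merged width ran from 2442 to 5427 bp, with a median of 2726 bp and an interquartile range of 2542 to 3014 bp. The other 66599 shared regions had a median of 656 bp. The threshold fell inside a run of near-equal widths. A region in the body of Fgf9 (2443 bp) and one at an end of Fcf1 (2442 bp) lay just inside, and regions at the start of Wwp2 and at an end of Arhgap31 (2441 bp each) just outside.

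Most open regions are as wide as a few nucleosomes and sit at a single enhancer or at a promoter. A stretch of several kilobases can form where many factors bind side by side, at a CpG island promoter that excludes nucleosomes, or over the body of a gene that RNA polymerase is transcribing heavily. In myeloid cells, broad accessible domains are known at genes that fix cell identity, such as those of the C/EBP and KLF transcription factors, and at immediate early genes, which are transcribed within minutes of a stimulus.

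The promoters of 5 genes that start in these regions are shown as examples of the sequence found there, from one dense in CpG to one with few CpG. They were picked after the regions were known. Each runs from 250 bases before to 50 bases after the gene start, 5′ to 3′, from RefSeq (build GRCm38.p6), with CpG dinucleotides in capitals.

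Cebpb promoter, chr2:167688665-167688964, plus strand: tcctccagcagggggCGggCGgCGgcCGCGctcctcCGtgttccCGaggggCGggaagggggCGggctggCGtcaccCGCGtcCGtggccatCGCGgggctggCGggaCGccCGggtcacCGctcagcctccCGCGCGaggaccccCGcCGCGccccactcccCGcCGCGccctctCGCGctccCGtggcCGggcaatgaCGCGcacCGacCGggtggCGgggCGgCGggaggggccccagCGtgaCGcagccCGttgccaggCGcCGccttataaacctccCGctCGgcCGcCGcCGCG
Zeb2 promoter, chr2:45110228-45110527, minus strand: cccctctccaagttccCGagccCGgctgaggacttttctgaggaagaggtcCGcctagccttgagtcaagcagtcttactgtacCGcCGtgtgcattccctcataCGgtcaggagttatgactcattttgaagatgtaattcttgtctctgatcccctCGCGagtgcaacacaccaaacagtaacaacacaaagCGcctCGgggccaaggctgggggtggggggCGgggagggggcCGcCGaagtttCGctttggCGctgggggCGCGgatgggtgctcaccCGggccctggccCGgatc
Jun promoter, chr4:95052173-95052472, minus strand: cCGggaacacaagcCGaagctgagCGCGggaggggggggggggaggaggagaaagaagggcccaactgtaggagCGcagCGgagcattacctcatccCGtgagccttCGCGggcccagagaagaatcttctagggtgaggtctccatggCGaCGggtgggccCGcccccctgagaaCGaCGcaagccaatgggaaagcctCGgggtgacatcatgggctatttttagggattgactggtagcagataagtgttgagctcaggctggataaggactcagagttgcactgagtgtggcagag
Sgk1 promoter, chr10:21991973-21992272, plus strand: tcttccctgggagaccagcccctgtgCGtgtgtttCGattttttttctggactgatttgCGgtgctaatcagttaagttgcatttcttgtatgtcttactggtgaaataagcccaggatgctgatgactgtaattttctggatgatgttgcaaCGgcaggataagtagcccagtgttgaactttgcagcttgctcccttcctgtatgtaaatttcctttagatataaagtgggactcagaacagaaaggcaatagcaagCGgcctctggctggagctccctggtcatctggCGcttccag
Srgn promoter, chr10:62507708-62508007, minus strand: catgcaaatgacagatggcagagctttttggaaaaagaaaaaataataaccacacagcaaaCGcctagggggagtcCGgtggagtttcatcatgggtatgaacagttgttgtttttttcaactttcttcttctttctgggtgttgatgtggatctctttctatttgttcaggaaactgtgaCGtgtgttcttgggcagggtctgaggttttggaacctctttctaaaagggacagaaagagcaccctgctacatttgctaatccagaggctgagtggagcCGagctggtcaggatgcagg

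Cebpb encodes a C/EBP factor of monocytes and macrophages, and its promoter held 50 CpG, with a ratio of observed to expected CpG of 1.03. Zeb2, a zinc finger repressor needed for monocyte identity, held 19 CpG (ratio 0.690), and Jun, a subunit of the AP-1 factor, held 15 (ratio 0.594). Sgk1, a serum- and glucocorticoid-induced kinase, held 6 CpG (ratio 0.370), and Srgn, which encodes the granule proteoglycan serglycin, held 4 (ratio 0.276). All 5 gene starts lie in regions among the 50 widest. Over the 247 listed promoters in wide regions the CpG count ran from 0 (Mgst2) to 65 (Kdm7a).

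The widest region of all held the start of Zeb2 (chr2:45108631-45114057, 5427 bp, coordinates as in the deposited lists and counted from 1). Its peaks covered 5387, 3159 and 3318 bp in DTR replicates 1 to 3 and 4544, 3072 and 3124 bp in WT replicates 1 to 3. DTR replicate 1 and WT replicate 1 each covered it with 1 peak, the other 4 libraries with 3 or 4 separate peaks, and the groups overlapped. The length covered in all 6 libraries was 2497 bp, or 46.0% of the merged width.

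Rank 2 lay in the body of Nr4a1, the nuclear receptor gene on which non-classical monocytes depend (chr15:101272016-101277342, 5327 bp), and held the annotated 3′ end of the gene. DTR libraries covered 4463, 4054 and 4903 bp and WT libraries 4083, 1592 and 3197 bp. WT replicate 1 lay within the DTR range, and WT replicate 2 covered the least. Another shared region, at rank 1364 and 2041 bp wide, lay at the listed start of Nr4a1. Its 6 libraries covered between 1926 and 2040 bp.

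At rank 3, the start of Tgif1, a homeobox repressor of TGF-β and retinoid signalling (chr17:70848980-70853787), was covered over 4798, 4808 and 4806 bp in DTR and 4799, 3552 and 3547 bp in WT. WT replicates 2 and 3 had 2 peaks there and the other 4 libraries 1 peak. Gfi1, a repressor that steers progenitors between granulocytes and monocytes, started in rank 7 (chr5:107722850-107727121), which was covered as 1 peak in every library. Its covered lengths were 3276, 3583 and 3640 bp in DTR and 3412, 3413 and 3782 bp in WT, overlapping throughout.

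Gene starts also lay in rank 10 (Pim1, a cytokine-induced kinase), rank 12 (Mxi1, an antagonist of MYC), rank 14 (Sgk1), rank 16 (Ctsz, the lysosomal protease cathepsin Z), rank 17 (both Brd2, a bromodomain reader of acetylated histones, and H2-DMa, which helps load MHC class II), rank 19 (L3mbtl3), rank 22 (Patz1) and rank 23 (Jun). Xylt1, at rank 21, has an annotated end there and no start in the promoter table. The other regions among the 25 widest lay in gene bodies: Tra2b, Zfand5, Lrsam1, Nrros, Tpm3, Atf3, Foxn3, Srrm2, Muc3, Tmem267, Ythdf3 and Adgrl2, besides Nr4a1. Tra2b and Srrm2 encode splicing proteins, and Atf3 is a stress-induced transcription factor.

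The libraries did not trace these regions alike. Patz1 (chr11:3288530-3292467, 3938 bp), a zinc finger gene, was a single peak of 3849 to 3930 bp in every library, and 97.7% of its width was open in all 6. The body of Nrros (chr16:32140796-32144988, 4193 bp), which encodes a partner of latent TGF-β in myeloid cells, was covered over 1308, 1049 and 4085 bp in DTR and 2150, 2123 and 1728 bp in WT. Only DTR replicate 3 wrote it as 1 peak, and 14.0% of the width was open in all 6. In the Tmem267 region, WT replicate 2 alone covered the full 3971 bp, and WT replicate 3 covered 1449 bp.

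**Figure D1:**
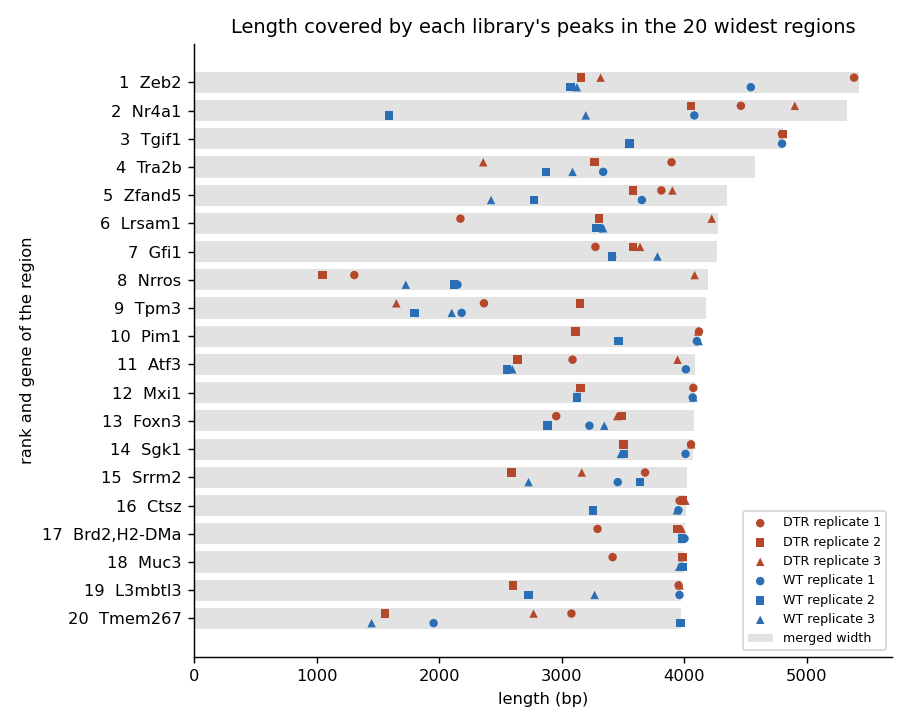
Length covered by the peaks of each library (points, bp; DTR red and WT blue, marker shape by replicate) in the 20 widest regions, with the merged width as a grey bar. The Gfi1 points lie close together, between 3276 and 3782 bp, while in Nrros and Tmem267 a single library comes near the end of the bar.

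Over all 500 regions, 224 (44.8%) were 1 peak in every library, against 97.3% of the other shared regions, which were narrower. A single peak spanned more than 90% of the merged width in all 6 libraries for 152 regions, in exactly 1 library for 94 and in none for 39. At least 50% of the width was open in all 6 libraries in 409 regions, and under 20% in 21. The median share open in all 6 was 74.8%, close to the 74.9% of the other shared regions. The lower end was a region in the body of Thbs1, which encodes the matrix protein thrombospondin 1: its libraries covered 140, 1890 and 2621 bp (DTR) and 343, 773 and 1321 bp (WT), and 0 bp was common to all 6. The upper end was the start of Ier5, an immediate early gene, where 3102 of 3109 bp (99.8%) were open in all 6.

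The median region had a lower deposited fold enrichment than other shared regions. This fold is the authors' own value per peak and is used only to describe these lists. It need not measure the height of a peak. In the Zeb2 region, DTR replicate 1 and WT replicate 1, with 1 peak each, had 2.43 and 2.47. The other 4 libraries, with 3 or 4 peaks, had 3.29 to 3.49. The part of peak length in the lower fold was not tested. Taking each library's best peak in a region and the median over libraries, the 500 regions had a median of 3.98 and the others 5.79. Atf3 had 1.65, a region 101 bp from the end of Btg1, an anti-proliferative gene, had 1.71 and Thbs1 had 1.81. At the other end, a region 40957 bp from the nearest gene end, that of Pip4k2a, had 8.52. Across ranks of width the median fold rose to 6.92 at ranks 10001 to 20000 and was 5.005 among the narrowest regions.

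Where the regions lie was not used to choose them. Gene starts came from a RefSeq promoter table (GRCm38.p6) that lists 16457 of 20665 protein-coding genes on chromosomes 1 to 19, and for the rest, which include every gene of chromosome 18, both annotated ends of the gene were used. The 26 wide regions of chromosome 18 are therefore placed by gene ends alone and add nothing to the counts of listed starts, promoters and 3′ ends. A listed start lay in 224 regions (44.8%), an end of an unlisted gene in 61 (12.2%), a gene body alone in 136 (27.2%), and 79 (15.8%) were intergenic. Together 285 regions (57.0%, 95% Wilson interval 52.6% to 61.3%) held a start or end, against 15.9% of the other shared regions. A wide region catches a start more easily than a narrow one. By the midpoint lying within 1 kb of a start or end, which does not grow with width, the share was 45.6% (41.3% to 49.98%) against 17.3%. These intervals cover counting error over regions only.

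The share by midpoint did not rise steadily with width. In the widest regions a start inside can lie more than 1 kb from the midpoint, which lowers this share. By a start or end inside, the 500 widest had 57.0% and the next 500 had 60.6%. The midpoint share was 59.6% (55.2% to 63.8%) in the next 500 regions by width, above that of the 500 widest. It was then 50.3%, 46.7%, 39.5% and 34.0% in the next bins down to rank 20000, 14.7% to rank 40000 and 3.84% among the narrowest. The choice of measure matters here: when the 500 regions were ranked by the length open in all 6 libraries, 266 of the 500 were among those described here and 74.2% held a start or end. Ranked by the median covered length the share was 66.6%.

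**Figure D2:**
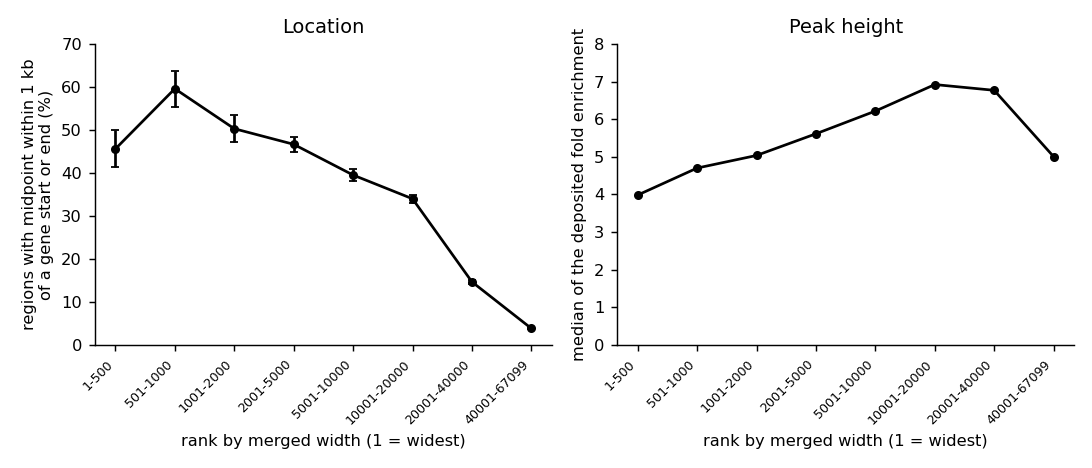
Left, share of shared regions (%) whose midpoint lay within 1 kb of a gene start or end, by rank of merged width, with 95% Wilson intervals. Right, median of the deposited fold enrichment in the same bins. The location share is highest in the second bin (59.6%) and lower among the 500 widest (45.6%), and the fold is lowest among the 500 widest (3.98). By a start or end inside, these 2 bins had 60.6% and 57.0%.

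Regions that held a start or end were traced more evenly than those that did not. Of the 285 with one, 156 (54.7%) were 1 peak in every library and the median share open in all 6 was 80.5%. Of the 215 without, 68 (31.6%) were 1 peak in every library and the median share was 65.4%. Under 20% of the width was open in all 6 for 2 of the 285 and 19 of the 215. These are counts over regions that share the same 6 libraries and carry no test.

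Several of the widest regions lay at the far end of a gene. Among genes with a listed start, 28 regions held a 3′ end and 16 of these held no listed start (3.2%, against 0.517% of the other shared regions, whose smaller width also bears on it). By the midpoint within 1 kb of a 3′ end the shares were 4.4% and 2.48%, and 2.0% in the next 500 by width. The 16 included Nr4a1 (rank 2), Tra2b (rank 4), Nrros (rank 8), Akap13 (rank 30), Sqstm1 with Mrnip (rank 32), Stk17b (rank 42) and Klf13 (rank 78). Sqstm1 encodes the autophagy receptor p62, and Klf13 is a Krüppel-like factor that also had its start in a separate wide region at rank 39. In the Klf13 3′ region the covered lengths were 1875, 1216 and 2037 bp in DTR and 1623, 313 and 1550 bp in WT, and 9.5% of the width was open in all 6.

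Around gene starts the regions reached further into the gene than upstream. In the 155 regions with exactly 1 listed coding start, the median reach was 1094 bp upstream and 1654 bp downstream, and 100 of 155 reached further downstream. The other 7192 shared regions with 1 start reached 419 bp and 574 bp. The downstream part made up a median of 58.4% of the width in the wide regions and 57.8% in the others, so both were lopsided to a like degree.

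At 1 kb downstream of the start a peak was present for 69.9% ± 3.18 of the 155 starts in DTR and 67.5% ± 3.55 in WT (SD, n = 3 libraries). The 6 libraries ranged from 65.2% to 73.5% and the groups overlapped. At 1 kb upstream the values were 51.4% ± 0.985 in DTR and 47.1% ± 1.12 in WT, where the groups did not overlap (46.5% to 52.3% over the 6). At 2000 bp upstream they overlapped, with 12.9% in DTR replicate 3 and 13.5% in WT replicate 1. Peak coverage enters the width by which the regions were chosen, so these shares carry no test. In the other shared regions a peak was present at 1 kb downstream for 13.7% ± 0.453 and 12.3% ± 0.832 of starts, and at 1 kb upstream for 7.58% ± 0.276 and 7.01% ± 0.445.

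**Figure D3:**
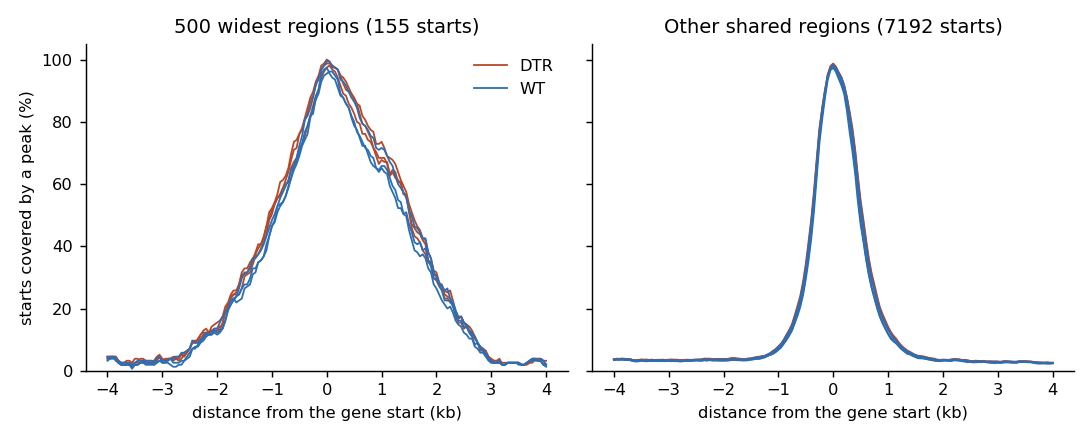
Share of gene starts (%) covered by a peak at each distance from the start (kb, negative upstream), 1 line per library, DTR red and WT blue, for the 155 starts in the 500 widest regions (left) and 7192 starts in other shared regions (right). The left profile is wide and leans downstream, and lines of both groups run close together.

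The 247 listed coding genes starting in the wide regions varied in length. Their median was 25560 bp, against 22750 bp for 9221 starting in other shared regions, with an interquartile range of 8381 to 79928 bp against 10155 to 50195 bp. Genes of up to 5 kb made up 16.2%, against 11.4%. Only 4 coding genes lay wholly inside a region: Foxl2 (rank 82), Higd2a (rank 315) and the histone genes H2ac20 and H2ac21 (both rank 496). In 23 regions (4.6%, against 1.14% of the others) at least 2 coding genes started, among them Brd2 with H2-DMa and Hnrnpa2b1 with Cbx3. A long noncoding RNA started in 61 regions (12.2% against 2.54%), and in 27 of these no coding start or end was present.

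The promoters of the 247 genes had a base composition near that of other open promoters. Their median GC content was 64.3% against 61.7% for the 9221 promoters in other shared regions and 49.0% for 6989 promoters in no shared region. The median ratio of observed to expected CpG was 0.767, 0.790 and 0.220. The share at or above a ratio of 0.6 was 71.7% (95% Wilson interval 65.7% to 76.9%), 77.3% and 14.9%.

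Short motifs were searched on both strands of the 300 bases, and a match describes letters only, not a bound site. The GC box of SP and KLF factors (GGGCGGG) was in 55.5% of the promoters in wide regions, 50.8% of those in other shared regions and 34.7% of all 16457. The ETS motif (CCGGAAG) was in 8.50%, against 19.8% and 12.3%. The TATA box (TATAAA) was in 9.72%, against 6.34% and 13.5%, and CCAAT in 31.6%, against 38.7% and 38.95%. Of the promoters printed above, those of Cebpb, Zeb2 and Jun held the GC box, those of Cebpb and Sgk1 a TATA box, that of Jun a CCAAT box, that of Zeb2 an AP-1 motif and that of Srgn an IRF motif. The shares of the other 8 motifs were 8.91% or lower in the wide regions. In the same order of sets, the YY1 motif (AAGATGGCG) was in 1.62%, 3.39% and 1.95%, and the E-box (CACGTG) in 8.50%, 10.7% and 7.96%. The AP-1 motif (TGANTCA) was in 4.86%, 4.598% and 7.17%, the IRF motif (GAAANNGAA) in 8.91%, 7.13% and 8.17%, and the PU.1 motif (GAGGAAGT) in 2.43%, 3.47% and 3.23%. The cAMP response element (TGACGTCA) was in 2.83%, 3.49% and 2.42%, the NRF1 motif (GCGCATGCG) in 3.24%, 4.002% and 2.45%, and the C/EBP motif (TTGCGCAA) in 0.810%, 0.282% and 0.207%, which is 2 promoters of the 247. No motif of the 12 was masked for overlap with another.

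Gene groups were read from 22 lists, counting a gene when its start, or an end where no start is listed, lay inside a region. Over all protein-coding genes 314 of 20665 (1.52%) were in a wide region, and 314 of the 11545 in any shared region (2.72%). Of the myeloid transcription factors 9 of 33 were in a wide region and 30 of 33 in a shared one. Besides Zeb2, Gfi1 and Cebpb these included the Krüppel-like factors Klf13 and Klf4, Cebpa, which starts the myeloid programme, Bhlhe40 and Maf. The Cebpb region (chr2:167686484-167689983, 3500 bp) was 1 peak in each library, covering 3420, 3473 and 3306 bp in DTR and 3279, 3473 and 3430 bp in WT. The lowest value was that of WT replicate 1, DTR replicate 2 and WT replicate 2 shared the highest, and the groups overlapped.

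The Cebpa region at rank 183 was less even. Its covered lengths were 2702, 2136 and 2850 bp in DTR and 2841, 2055 and 2050 bp in WT, with 2 libraries writing a single long peak in DTR and 1 in WT. Maf (rank 422) and Bhlhe40 (rank 219) were 1 peak in all 6 libraries, with 2354 to 2471 bp and 2753 to 2787 bp.

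Of 40 immediate early and feedback genes, which respond to signalling within minutes and damp it again, 9 were in a wide region: Sgk1, Jun, Klf4, Zfp36l1, Ier5, Junb, Zfp36l2, Dusp6 and Egr2. The Jun region (chr4:95050091-95053989, 3899 bp) was covered over 3892, 3891 and 3895 bp in DTR and 3887, 3417 and 3402 bp in WT. The DTR and WT values did not overlap, but WT replicate 1 lay next to the DTR libraries and far from the other WT ones. Sgk1 (chr10:21992086-21996155, 4070 bp) was covered over 4056, 3504 and 4058 bp in DTR and 4011, 3507 and 3483 bp in WT, and the groups overlapped. Klf4 (rank 73) varied more, with 3225, 1919 and 3268 bp in DTR and 2471, 1873 and 1772 bp in WT. Egr2 (rank 355) was one of the most even, at 2558 to 2566 bp in all 6. Zfp36l1 and Zfp36l2 encode proteins that speed the decay of mRNAs with AU-rich elements, and Dusp6 is a phosphatase of ERK.

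Smaller numbers came from the other lists. Of 22 cyclins, CDK inhibitors and growth genes 4 were in a wide region (Pim1, Mxi1, Cdk6 and Pim3), of 38 chromatin modifying enzymes 4 (Brd2, Kmt2e, Arid1b and Kdm7a), and of 25 interferon response genes 3 (Ifngr2, Isg20 and Irf2). Antigen presentation gave 2 of 20 (H2-DMa and the invariant chain gene Cd74), splicing and RNA binding 2 of 26 (Hnrnpl and Hnrnpa2b1), and stem and progenitor genes 2 of 14 (Myb and Meis1). Of 10 noncoding RNA loci 3 were in a wide region: Dleu2 and Mir22hg, hosts of microRNAs, and Neat1, the scaffold of paraspeckles. The receptors gave Cxcr4 (1 of 22) and the cytokines Vegfa (1 of 23). Cdk6 (rank 41), a G1 kinase, was among the most even regions, with 3549 to 3566 bp in all 6 libraries and 99.4% of the width open in all.

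All 29 ribosomal protein genes and all 25 oxidative phosphorylation genes were in a shared region and 0 of either list in a wide one, where the share over all genes in shared regions was 2.72%, so a count of 0 in lists of this size is near that share. Of the markers of the labelled cell type, all 15 classical monocyte genes and 13 of 15 non-classical ones were in a shared region, and 1 of each list in a wide one, Cd14, the co-receptor for lipopolysaccharide, and Cebpb. Over all protein-coding genes, 11545 of 20665 were in a shared region. Markers of other blood cells were in shared regions less completely than those of monocytes: 5 of 17 megakaryocyte and platelet genes, 3 of 13 erythroid, 2 of 12 B cell, 6 of 16 T and NK cell, 6 of 15 neutrophil, 8 of 13 dendritic cell and 2 of 12 basophil, mast cell and eosinophil genes. The dendritic cell share lay above that over all genes and the rest below it. These 7 lists had 0 genes in a wide region, again near the 2.72% in lists of this size. Of the 14 stem and progenitor genes 7 were in a shared region, including the 2 in a wide one.

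**Figure D4:**
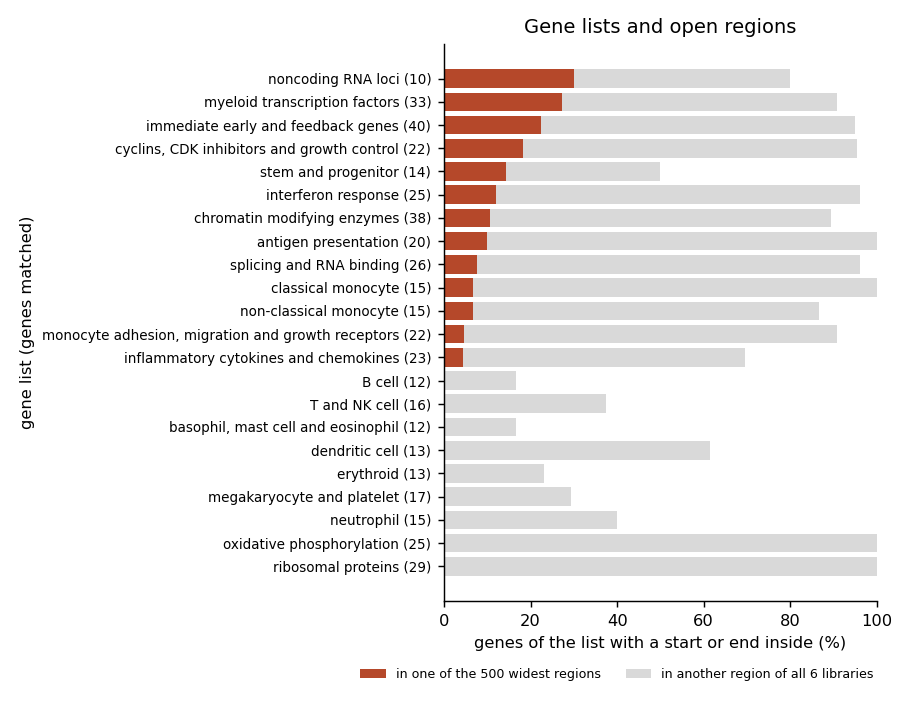
Share of each gene list (%, genes matched in brackets) with a start or end in one of the 500 widest regions (red) or in another region with a peak in all 6 libraries (grey). Red is longest for noncoding RNA loci, myeloid transcription factors and immediate early genes (9 of 40) and absent for ribosomal protein and oxidative phosphorylation genes, whose bars are grey to 100%.

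Regions at genes often used to describe monocytes and platelets differed widely in width. The region at Ccr2, the receptor that brings classical monocytes out of the marrow, was rank 540 at 2411 bp, just outside the 500. Spi1, which encodes the master regulator PU.1, had a region of 1531 bp at an annotated end (rank 4839) and a wide region in its body at rank 414 (2507 bp). The region at Pf4, a platelet chemokine gene and the source of the promoter that drives Cre here, was rank 7101 at 1365 bp, and its libraries covered 1233, 1352 and 1319 bp in DTR and 1308, 1204 and 1331 bp in WT. Klf2 was rank 15655 (1016 bp), Cx3cr1 rank 18007 (951 bp), Ly6c2 rank 34135 (651 bp) and Csf1r, the receptor for macrophage colony-stimulating factor, rank 38053 (591 bp).

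Of the 500 regions, 124 (24.8%) lay more than 10 kb from any coding gene end, inside long gene bodies or between genes, against 53.0% of the other shared regions. For 51 of the 500 (10.2%, against 25.3%) no coding gene body lay within 10 kb. The widest with no coding gene within 10 kb was rank 53, 19313 bp from Nrf1. A long noncoding RNA starts inside this region. Rank 70 (chr2:167774921-167778251, 3331 bp) was 84489 bp from Cebpb, the nearest coding gene, and held starts of long noncoding RNAs. It was covered over 3285, 3285 and 3306 bp in DTR and 3305, 2769 and 2758 bp in WT, and WT replicate 1 lay within the DTR range. Rank 85 (chr9:123923168-123926390, 3223 bp) was 35736 bp from the chemokine receptor gene Ccr1 and also held the start of a long noncoding RNA. It was covered over 3207, 3212 and 3209 bp in DTR and 3223, 2668 and 2498 bp in WT. Rank 84, 16328 bp from Osbp, was 1 peak in every library, with 3211 to 3232 bp and 99.2% of the width open in all 6.

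Some wide regions were neighbours. Linking regions up to 50 kb apart gave 25 groups with 52 regions, none of more than 3. Furin, Fes and Man2a2 on chromosome 7 formed one of 3 (7977 bp in sum), as did B3gnt2 on chromosome 11 (7559 bp). Furin encodes a proprotein convertase and Fes a myeloid tyrosine kinase. Pairs lay in the bodies of Ptprc, which encodes the leukocyte phosphatase CD45, of Rbm39 and of Kdm6b, a histone H3K27 demethylase. By chromosome the wide regions were 0.406% (chromosome 16) to 1.32% (chromosome 18) of the shared regions, and between 0.565% and 0.890% on the other 17.

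Between the groups, mean covered length per wide region was 2533, 2468 and 2608 bp in DTR replicates 1 to 3 and 2522, 2260 and 2341 bp in WT replicates 1 to 3. WT replicate 1 lay within the DTR range and the other WT libraries below it. The group means were 2536 ± 70.2 bp and 2374 ± 134 bp (SD, n = 3), 6.82% higher in DTR. Covered length enters the width by which the regions were chosen, so this carries no test. In the other shared regions the mean was 5.28% higher in DTR, and the DTR lists held 79569 to 81980 autosomal peaks against 76015 to 78560 in WT. The part of that in the difference was not tested.

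The number of peaks into which a library split a region was the measure compared by a test. The same peaks were merged to give the width, so this count is not free of the choice of regions either. Libraries wrote 1.258, 1.298 and 1.174 peaks per region in DTR and 1.198, 1.46 and 1.402 in WT. The means were 1.24 ± 0.0633 and 1.35 ± 0.138, a difference of −0.11 with p = 0.3 by an exact two-sided permutation test, whose smallest possible p for 3 against 3 libraries is 0.1. The groups overlapped, and the difference was within the spread between WT libraries. WT replicate 2 was the narrowest library in 181 regions and WT replicate 3 in 152, while DTR replicate 3 was the widest in 175.

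Region by region, all DTR covered lengths lay above all WT ones in 82 of 500 (16.4%), where the share over all 67099 shared regions was 13%. All WT lengths lay above all DTR ones in 9 of 500 (1.8%), against 1.87%. The first share was 16.5% in regions with a start or end (47 of 285), 16.3% in those without (35 of 215) and 11.4% in the next 500 regions by width (57 of 500). Leaving out WT replicate 1 gave 192 of 500 (38.4%, against 27.4% of all shared regions), and leaving out DTR replicate 1 or DTR replicate 2 gave 129 each (25.8%, against 19.7% and 22.9%). For the other direction, leaving out DTR replicate 1, DTR replicate 3 or WT replicate 3 gave 19 each. This was 3.8%, against 4.29%, 4.31% and 4.22% of all shared regions. Leaving out WT replicate 2 gave 20 (4%, against 5.74%). With 2 libraries in a group, non-overlap is easier to reach.

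**Figure D5:**
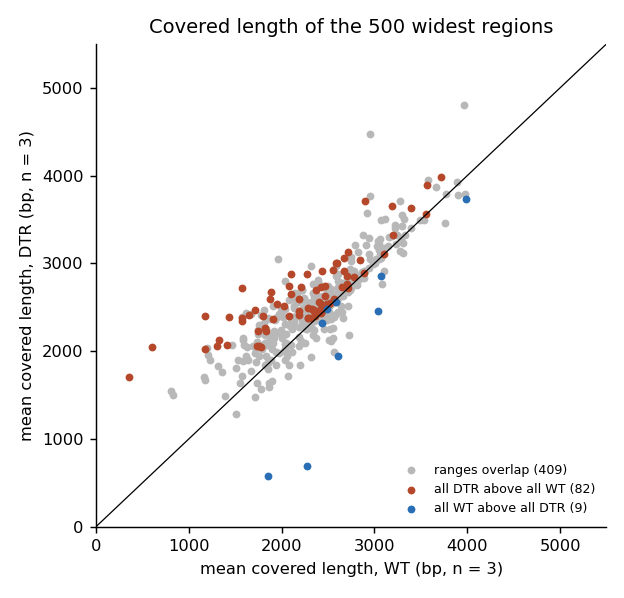
Mean covered length (bp, 3 libraries each) of the 500 regions in WT (x axis) and DTR (y axis), with the line of equality. The 82 regions whose DTR values all lie above the WT values (red) are spread along the cloud, and 9 show the reverse (blue).

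The regions with the widest margin between the groups are named as a description, since they were ranked by that margin. In the body of Mcoln2, a lysosomal cation channel gene (chr3:146156151-146158616, 2466 bp), DTR libraries covered 2335, 2431 and 2427 bp and WT libraries 926, 1413 and 1173 bp. The lowest DTR value stood above the highest WT value by 37.4% of the width. The best fold enrichment there went the other way, with 3.80, 3.75 and 3.31 in DTR and 4.08, 4.14 and 4.13 in WT. In the Cd44 region, described next, the fold values of the groups overlapped. In the body of Cd44, which encodes the hyaluronan receptor (chr2:102849930-102852565, 2636 bp), the values were 1914, 2460 and 1766 bp in DTR and 483, 461 and 882 bp in WT, and 151 bp was open in all 6. An intergenic region 224697 bp from Il12b, the gene of the IL-12 p40 subunit, had 2523, 1287 and 1298 bp in DTR and 303, 311 and 452 bp in WT.

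At the start of Trpm2, an oxidant-sensitive calcium channel of myeloid cells (chr10:77969764-77972371, 2608 bp), DTR libraries covered 2584, 2598 and 2608 bp and WT libraries 1883, 1874 and 1863 bp. Each library had 1 peak there, and values within a group lay close together beside the distance between the groups. The region at LOC102634078 and Nipbl, a cohesin loader gene (chr15:8442939-8446657, 3719 bp), was 1 peak of 3717, 3717 and 3707 bp in DTR and 2 peaks totalling 2934, 2890 and 2876 bp in WT.

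In the opposite direction, Mex3d, an RNA-binding protein gene (chr10:80386376-80389464, 3089 bp), was covered over 2450, 2476 and 2441 bp in DTR, as 2 peaks, and over 3034, 3025 and 3070 bp in WT, as 1 peak. The start of Foxp4, a forkhead repressor gene, had 1482, 2168 and 2175 bp in DTR and 2648, 2607 and 2580 bp in WT. The body of Stk17b, a kinase gene of the DAPK family (3564 bp), had 1215, 157 and 693 bp in DTR and 3415, 1859 and 1533 bp in WT, with 157 bp open in all 6. In the body of 1810013L24Rik the values were 700, 533 and 498 bp against 2372, 920 and 2263 bp. The fifth, at the start of Mideas, differed by as little as 2561 to 2568 bp against 2583 to 2605 bp.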

How the data were processed

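ATAC-seq peaks of 6 blood monocyte libraries were used, 3 DTR and 3 WT, grouped and numbered by their titles. The authors deposited 1 list of broad peaks per library. The tools named in the submitters' processing notes are MACS2, Bowtie2 (version 2.4.4), Bowtie and fastp. Parameters, any read shift and the genome build: not given in the sources used here. The deposited lists give positions, a score, fold enrichment (a ratio to the caller's background), and −log10 p and q values. Peaks were called on each library alone, and smallest −log10 q values of 1.01 to 1.03 were deposited. No counts are given, so depth is unknown.

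Peaks were merged with Python 3.11.15, numpy 2.4.6 and pandas 2.3.3. A library's covered length is the summed length of its peaks in a region. Fold enrichment of a region is the median over libraries of the best peak's fold. RefSeq tables of GRCm38.p6 gave names, starts and sequences. Of the listed starts on a chromosome, 43.7% to 63.2% lay in a shared region, and 1.94% to 5.70% after moving them by 5000 or 20000 bp. Where no start was listed, both gene ends were used. Of 237 ends inside the wide regions of genes with a listed start, 149 (62.9%) were within 100 bp of one. Peaks per region were compared by an exact permutation test, which was tested on simulated data. Wilson intervals came from scipy 1.17.1. Other values carry no test. Regions, 22 gene lists (440 of 448 genes matched) and 12 motifs were chosen with earlier results of these data known.

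Named regions are the 25 widest with a coding gene within 10 kb, the 10 widest without, up to 4 per list, the 5 largest margins per direction, those at the threshold and 9 marker genes. Others were named after their values were seen, and 1 listed gene is not reported here. Chromosomes X, Y and M and unplaced sequence were left out of the comparisons. Alternatives were the joining distance, the ranking measure, a stricter q value, lists of equal length, 250 or 1000 regions, each library left out and a replicate block.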

Additional observations from a re-analysis of the deposited data

How the results depend on the processing

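The differences between the groups in peaks and in covered length per region kept their direction in each setting in which they were recomputed. Ranked by the length covered in all 6 libraries, 266 of the 500 regions were shared with the main set, covered length per region was 51.4 bp higher in DTR (162 bp in the main set), 74.2% of regions held a gene start or end (57.0%) and 77.5% of their promoters had a CpG ratio of at least 0.6 (71.7%). Ranked by the median covered length 66.6% held a start or end, with a q value of at most 1e-05 61.8%, and by midpoint 45.6%. The 250 widest, all of them members, gave 38 regions with all DTR values above WT (15.2%) and 5 the reverse (2%). The 1000 widest gave 139 (13.9%) and 21 (2.1%), as the number taken changed. Over all 67099 shared regions the shares were 13% and 1.87%.

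With each library left out, the number of regions with all DTR values above WT ran from 102 to 192 (20.4% to 38.4%). Over all shared regions this share ran from 17.1% to 27.4%. The reverse ran from 7 to 20 (1.4% to 4%), against 3.49% to 5.74% of all shared regions. With a library left out, covered length per region was 106 to 240 bp higher in DTR. Peaks per region differed by −0.185 to −0.0573 (exact permutation p of 0.1 to 0.6). The p of 0.1 came without WT replicate 1 and is the smallest possible. The same peaks gave the width, so this count is not free of the choice of regions.

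Correlations of the deviations of same-numbered libraries were −0.0031, 0.0119 and −0.0456, and of others −0.0733 to 0.0797, so the numbers pair nothing visible. A replicate block left the differences at −0.11 peaks (exact sign-flip p = 0.5, smallest possible 0.25) and 162 bp. Depth is unknown, and no value here separates a shallower library from narrower open chromatin.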

Other observations

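Regions as wide as those described above also lay outside chromosomes 1 to 19, where they were not counted. Of 1561 shared regions on the X chromosome 13 reached 2442 bp. The widest, at Tbl1x, which encodes a subunit of the NCoR corepressor complex, spanned 3276 bp and was covered over 3245, 3276 and 3234 bp in DTR and 3256, 2678 and 3245 bp in WT. Bcor, a BCL6 corepressor gene (2854 bp), and Tmsb4x, which encodes the actin-binding thymosin β4 (2460 bp), were also among them.

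The Ptchd1 region on the X chromosome (2884 bp) was covered over 1494, 1475 and 1493 bp in DTR and 2821, 2113 and 2739 bp in WT, with no overlap between the groups. The 1 region of this width on the Y chromosome (3870 bp) was covered over 1168, 1013 and 1623 bp in DTR and 2655, 3215 and 2250 bp in WT, again with no overlap. An unplaced sequence held a region of 6077 bp covered over 3257, 2852 and 2655 bp in DTR and 4344, 3519 and 4505 bp in WT, also without overlap. An unplaced region of 2769 bp had all WT values above all DTR ones too. The reverse held for an X region of 2698 bp, with 2573, 2104 and 2678 bp in DTR and 1970, 1931 and 1941 bp in WT. It also held for an unplaced region of 2959 bp. These regions were picked after their values were seen, and the differences carry no test. The share without overlap was not computed over all shared regions of X, Y and unplaced sequence, and the labels give no sex.

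Hairpins of 3 microRNA genes overlapped the 500 wide regions (Mir7653, at the edge of its region, Mir7687 and Gm51264), of 108 overlapping any shared region. The Mir7687 region (rank 81) was covered over 2173, 2164 and 2433 bp in DTR and 2488, 2928 and 2144 bp in WT.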
